A study of Mus musculus with 8 samples.

Results

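The genes described here are 10 genes of the MHC class I antigen presentation pathway: *H2-K1*, *H2-D1*, *B2m*, *Tap1*, *Tap2*, *Tapbp*, *Psmb8*, *Psmb9*, *Psmb10* and *Nlrc5*. They were taken by name from the deposited count table, in which each of the 10 was a row among 18768 genes, and all 10 were among the 15153 genes kept by the filter on low counts. RNA-seq was done on 4 mouse tumor cell lines with 2 libraries each. The lines MC010 and MC011 are labeled IRF8 KO and come from tumors of mice with a germline knockout of IRF8, whereas MC654 and MC659 are labeled WT and come from tumors of wild-type C57BL/6 mice. All 4 were fibrosarcomas raised by subcutaneous methylcholanthrene (MCA), a chemical carcinogen, then dissociated and kept in culture for at least 10 passages before RNA was extracted. The labels name no further treatment. Each line was taken to stand for a single tumor, so that a comparison of the labels rests on 2 tumors against 2.

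MHC class I molecules display peptides from inside the cell to CD8 T cells. In the mouse the class I heavy chains H2-K and H2-D pair with beta-2 microglobulin, the product of *B2m*. The peptides are cut from proteins by the proteasome, in which PSMB8, PSMB9 and PSMB10 can take the place of the constitutive catalytic subunits PSMB5, PSMB6 and PSMB7 to form the immunoproteasome. The transporter made of TAP1 and TAP2 carries the peptides into the endoplasmic reticulum (ER), where tapasin, the product of *Tapbp*, holds the class I molecule to the transporter while a peptide is loaded. NLRC5 is a transactivator of class I genes, and interferons are the best known inducers of the pathway. Loss of class I on tumor cells is known as a way to escape CD8 T cells.

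The library totals were 74063616 to 116206078 counts, at which 3 counts of a gene were worth 0.0262 to 0.0408 CPM (counts put on the same scale across libraries with edgeR's TMM factors). *Irf8*, the gene knocked out in the mice, did not follow the labels: it had 442 and 347 counts in the libraries labeled MC010, 32 and 10 in those labeled MC011, 1 and 2 in MC654 and 1 and 0 in MC659. A count over a whole gene does not show which exons were read, so this row does not check the allele, and every direction below is given for the libraries as labeled. The mesenchymal marker *Vim* lay between 4532 and 7384 CPM in all 8 libraries. Of the hematopoietic markers, *Ptprc* was at 0 to 0.177 CPM and *Flt3* at 0.0272 to 0.156 CPM. *Csf1r* was at 0.245 to 0.477 CPM in the lines labeled IRF8 KO and 0.935 to 1.80 CPM in the WT lines. *Cd68* was at 5.25 to 6.74 CPM and 8.25 to 10.1 CPM in the same groups. *Cd79a* went the other way, at 0.0874 to 0.19 CPM in the lines labeled IRF8 KO and 0.0222 to 0.068 CPM in the WT lines. The summed CPM of the 5 hematopoietic markers matched in the table was 6.60 to 7.41 in MC010, 5.82 to 7.10 in MC011, 9.79 to 10.0 in MC654 and 11 to 11.5 in MC659, most of it from *Cd68*. The summed epithelial markers, mainly *Krt8* and *Krt18*, were 531 to 565 CPM in MC010, 33.3 to 34.7 CPM in MC011, 128 to 129 CPM in MC654 and 114 to 123 CPM in MC659. The 10 mesenchymal markers summed to 9702 to 10480 CPM in the lines labeled IRF8 KO and 14426 to 16154 CPM in the WT lines, and the 3 endothelial markers to 0.135 to 0.789 CPM over all libraries. The part of these differences in the results below was not tested.

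All 10 genes were lowest in MC011. Both MC011 libraries lay below the 6 libraries of the other lines for 10 of the 10 genes, against 17.8% of all genes tested. Compared with the WT lines (the mean of MC654 and MC659), MC011 had 10 of 10 genes called lower, where called means an adjusted p below 0.05 and a log2 difference beyond 0.59 in edgeR's quasi-likelihood test. The background for that call was 13.4% of all genes. The differences ran from -0.66 for *Nlrc5* to -4.30 for *Psmb8*, with a median of -2.13 on the log2 scale, beside a median of 0.0045 over all genes tested. MC010, the other line labeled IRF8 KO, lay nearer to the WT lines. Of the 10 genes, 2 were called higher in it (*Tapbp* and *Psmb8*; background 19.7%), 1 was called lower (*Tap1*; background 17.4%), and the median difference was 0.12, beside 0.0017 over all genes. Nothing in the labels says that the 2 libraries of a line came from separate cultures, so p-values between lines measure only the spread between these libraries, which may be technical. In RNA from a whole culture, fewer cells expressing a gene and less RNA in each cell cannot be told apart.

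**Figure D1:**
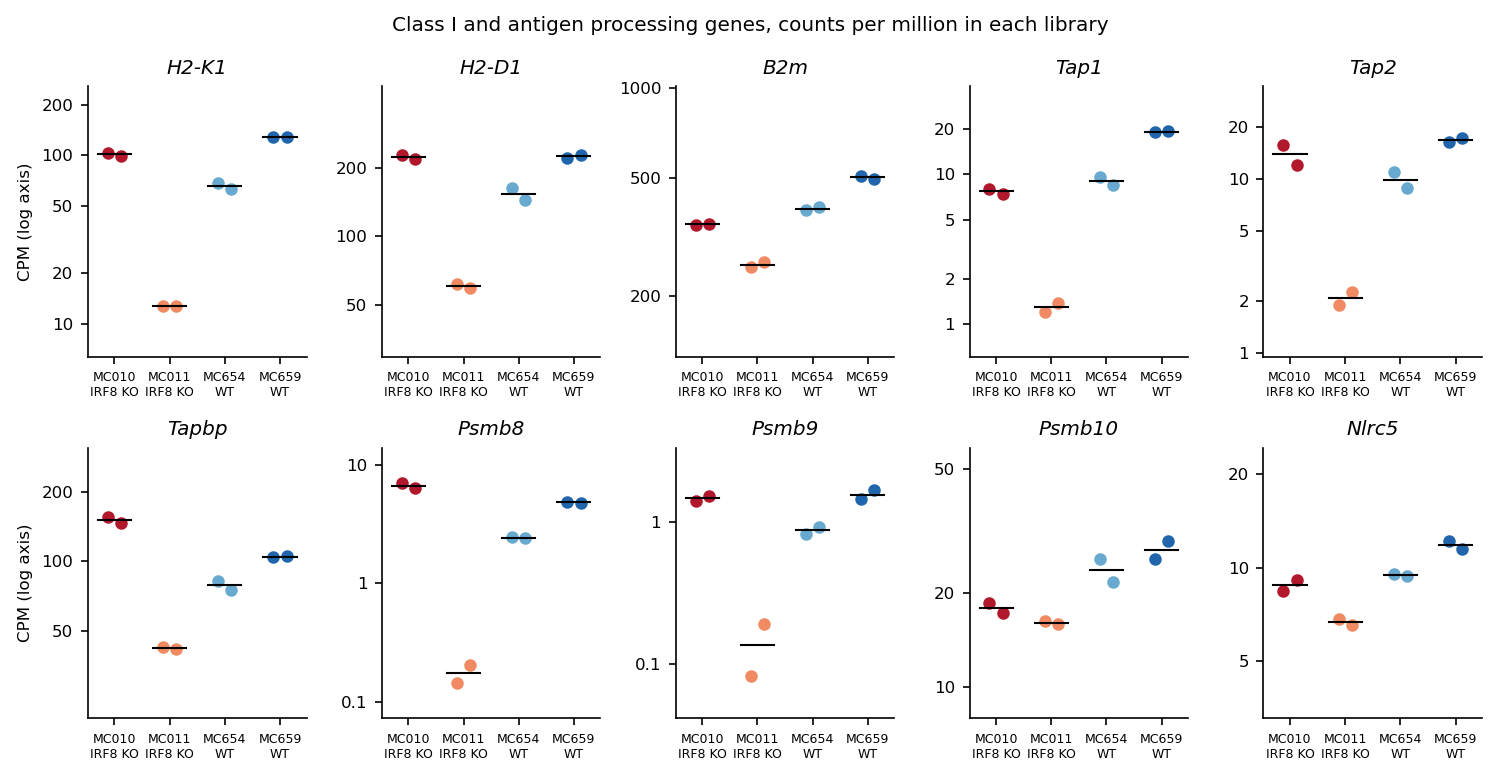
CPM of the 10 genes in each of the 8 libraries, 1 panel per gene with a log axis that differs between panels. Points are libraries and black bars are line means; the 2 MC011 points are the lowest in every panel, such as 12.7 and 12.8 CPM for H2-K1 and 251 and 260 CPM for B2m.

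The heavy chain gene *H2-K1* (ENSMUSG00000061232, mm10 chr17:33996017-34000333, minus strand) had 104 and 99.0 CPM in MC010, 12.7 and 12.8 in MC011, 69.0 and 62.8 in MC654 and 128 and 130 in MC659. The lines did not overlap, and the MC011 level was 13.1% of the mean of the WT libraries. Its log2 difference of MC011 from the WT lines was -2.86 ± 0.06 (SE; adjusted p = 1.1e-15, edgeR). *H2-D1* (ENSMUSG00000073411, chr17:35262730-35267499, plus strand), the other classical heavy chain, had 227 and 219 CPM in MC010, 61.8 and 59.3 in MC011, 163 and 145 in MC654 and 220 and 228 in MC659. MC010 and MC659 overlapped for this gene, with a log2 difference of -0.0071 ± 0.06 (SE), and MC011 was again apart from the rest. The difference of MC011 from the WT lines was -1.62 ± 0.05 (SE; adjusted p = 3.9e-13). Class I genes share stretches of sequence: of all 75-base windows of the *H2-D1* transcript 6.90% also occur in another annotated transcript, most of them in *H2-Q1*, and 1.55% of those of *H2-K1* occur in *H2-D1*. With the counts of *H2-K1* and *H2-D1* added together as a single gene, MC011 was lower than the WT lines by a log2 difference of -1.93 ± 0.05 (SE), and with 7 *H2-Q* and *H2-T* genes added as well the difference was -1.76 ± 0.05 (SE).

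The light chain gene *B2m* (ENSMUSG00000060802, chr2:122147686-122153083, plus strand) had the highest level per length of the 10 genes, with a mean of 436 CPM per kb of exon against 64.1 for *H2-D1* and 26.3 for *H2-K1*. The length was that of all annotated exons merged, 860 bases for *B2m*, 2579 for *H2-D1* and 2938 for *H2-K1*. Their transcripts searched for shared windows had 860, 2102 and 1619 bases, so the size of the gap depends on the length taken. *B2m* had 348 and 351 CPM in MC010, 251 and 260 in MC011, 389 and 398 in MC654 and 509 and 496 in MC659. The lines did not overlap, and the order was MC011, MC010, MC654 and MC659 from low to high. The MC011 level of *B2m* was 57.1% of the WT mean, a log2 difference of -0.80 ± 0.04 (SE; adjusted p = 3.8e-11). Between the same lines, the difference of the light chain was smaller in size than those of both heavy chains.

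The promoter windows of the heavy and light chains are shown because these genes are the class I molecule itself and lie on different chromosomes. Each runs from 250 bases before to 50 after the annotated start (RefSeq, GRCm38.p6). They were searched on both strands for the core of an interferon-stimulated response element (ISRE), which is GAAA repeated with any 2 bases in between. The gamma-activated site (GAS) was searched as TTCNNNGAA. The other motifs searched were the CCAAT box, the core of a cyclic AMP response element (CRE) with the letters TGACG, and the NF-kappaB motif, and no match of these overlapped with an ISRE or GAS match. Windows were matched for 8 of the 10 genes, all but *Tap2* and *Nlrc5*. Capitals mark ISRE and GAS matches only.
H2-K1, chr17:34000284-34000583, minus strand: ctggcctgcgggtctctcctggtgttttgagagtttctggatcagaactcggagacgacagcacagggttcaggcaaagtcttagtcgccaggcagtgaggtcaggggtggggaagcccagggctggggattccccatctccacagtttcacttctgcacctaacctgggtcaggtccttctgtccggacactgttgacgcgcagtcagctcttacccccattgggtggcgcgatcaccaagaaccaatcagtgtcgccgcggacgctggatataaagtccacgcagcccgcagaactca
H2-D1, chr17:35262844-35263143, plus strand: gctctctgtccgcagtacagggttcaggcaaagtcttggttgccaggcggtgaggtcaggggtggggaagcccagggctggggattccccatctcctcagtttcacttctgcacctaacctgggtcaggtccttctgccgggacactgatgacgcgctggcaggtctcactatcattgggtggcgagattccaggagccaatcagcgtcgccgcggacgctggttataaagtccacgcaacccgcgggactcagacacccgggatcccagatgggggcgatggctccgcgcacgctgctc
B2m, chr2:122147437-122147736, plus strand: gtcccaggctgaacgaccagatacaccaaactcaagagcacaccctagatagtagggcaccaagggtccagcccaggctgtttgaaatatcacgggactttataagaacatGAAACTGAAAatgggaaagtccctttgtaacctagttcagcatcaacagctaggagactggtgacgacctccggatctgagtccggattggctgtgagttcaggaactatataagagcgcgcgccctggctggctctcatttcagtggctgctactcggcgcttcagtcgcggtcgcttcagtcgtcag
All 3 windows held a match to the CCAAT box, the CRE core and the NF-kappaB motif. Among all 32851 windows of that length, 37.4% held a CCAAT box, 20.8% a CRE core and 8.46% an NF-kappaB match. The ISRE match in *B2m* was the only ISRE match in the 8 windows, against 3.44% of all windows. Only the letters given above were searched. Windows without a match, among them those of *H2-K1* and *H2-D1*, may therefore still hold a variant of the element. Shifted by 46 bases, the *H2-K1* and *H2-D1* windows were identical at 180 of 254 positions without gaps. A match is a run of letters and was not tested as a site.

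The transporter genes lie on either side of *Psmb8* within the MHC on chromosome 17. *Tap1* (ENSMUSG00000037321, chr17:34187553-34197225, plus strand) had 8.0 and 7.44 CPM in MC010, 1.21 and 1.39 in MC011, 9.61 and 8.5 in MC654 and 19.1 and 19.4 in MC659. Every library labeled IRF8 KO was below every library labeled WT, with the nearest libraries at 8.0 CPM in MC010 and 8.5 CPM in MC654. Against the WT lines, MC011 was lower by -3.35 ± 0.11 and MC010 by -0.77 ± 0.09 (log2, SE; adjusted p = 6.9e-13 and 1.1e-06). *Tap2* (ENSMUSG00000024339, chr17:34203527-34216321, plus strand), the partner subunit, had 15.6 and 12.1 CPM in MC010, 1.90 and 2.24 in MC011, 11 and 8.87 in MC654 and 16.4 and 17.2 in MC659. Here MC010 lay between the WT lines, and only MC011 stood apart. The log2 difference of *Tap2* from the WT lines was -2.65 ± 0.14 in MC011 and 0.11 ± 0.11 in MC010 (SE; adjusted p = 1.3e-10 and 0.38). *Tapbp* (ENSMUSG00000024308, chr17:33915899-33929288, plus strand), the tapasin gene, had 156 and 148 CPM in MC010, 42.7 and 41.6 in MC011, 82.5 and 75.3 in MC654 and 104 and 105 in MC659. It was highest in MC010, and the lines did not overlap. The log2 difference from the WT lines was 0.74 ± 0.04 in MC010 and -1.11 ± 0.05 in MC011 (SE; adjusted p = 6.1e-10 and 1.9e-11). Of the exon bases of *Tapbp*, 4.11% also belong to *Zbtb22* on the same strand and 24.9% to *Gm19412* on the opposite strand. On the opposite strand, 14.1% of those of *Tap2* also belong to *Gm15821* and 4.36% to *Gm20496*, and 14.7% of those of *Psmb8* to *Gm20496*. The kit kept strand but the strand setting of the counting was not given in the sources used here, so reads in such shared bases cannot be assigned with certainty.

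*Psmb8* encodes an inducible catalytic subunit (ENSMUSG00000024338, chr17:34197721-34201454, plus strand) and had the widest range of the 10 genes. It had 796 and 464 counts in MC010, 14 and 16 in MC011, 203 and 203 in MC654 and 430 and 423 in MC659. These counts came to 6.96 and 6.31 CPM in MC010, 0.145 and 0.203 in MC011, 2.43 and 2.39 in MC654 and 4.87 and 4.70 in MC659. The mean in MC010 was 38.2 times that in MC011, and MC011 held 4.83% of the WT mean. The difference from the WT lines was -4.30 ± 0.20 in MC011 and 0.97 ± 0.12 in MC010 (log2, SE; adjusted p = 4.2e-11 and 2.1e-06). *Psmb9* (ENSMUSG00000096727, chr17:34181988-34187764, minus strand) was the lowest of the 10 genes per length and had 160 and 112 counts in MC010, 8 and 15 in MC011, 69 and 78 in MC654 and 127 and 150 in MC659. MC010 and MC659 overlapped, and MC011 was lower than the WT lines by a log2 difference of -3.12 ± 0.33 (SE; adjusted p = 7.3e-07). *Psmb10* (ENSMUSG00000031897, chr8:105935735-105938444, minus strand) is the inducible subunit encoded outside the MHC. It had 18.6 and 17.2 CPM in MC010, 16.2 and 15.8 in MC011, 25.7 and 21.7 in MC654 and 25.8 and 29.2 in MC659. Both lines labeled IRF8 KO were below both WT lines and close to each other, with differences from the WT lines of -0.67 ± 0.08 in MC011 and -0.51 ± 0.08 in MC010 (log2, SE; adjusted p = 2.1e-06 and 2.6e-05).

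*Tap1* and *Psmb9* are transcribed away from each other, and their promoter windows share 275 of 300 bases, with the annotated starts 226 bases apart. The shared window is shown as it reads in the *Tap1* direction because both genes were called lower in MC011, together with the window of the neighboring *Psmb8*, which held the single GAS match of the 8 windows (8.30% of all windows held a GAS match).
Tap1, chr17:34187306-34187605, plus strand: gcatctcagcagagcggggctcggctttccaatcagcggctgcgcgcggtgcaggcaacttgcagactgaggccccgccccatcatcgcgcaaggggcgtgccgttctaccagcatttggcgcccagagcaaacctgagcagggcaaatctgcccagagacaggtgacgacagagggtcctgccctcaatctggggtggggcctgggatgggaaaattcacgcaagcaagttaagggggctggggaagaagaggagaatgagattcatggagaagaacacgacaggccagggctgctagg
Psmb8, chr17:34197945-34198244, plus strand: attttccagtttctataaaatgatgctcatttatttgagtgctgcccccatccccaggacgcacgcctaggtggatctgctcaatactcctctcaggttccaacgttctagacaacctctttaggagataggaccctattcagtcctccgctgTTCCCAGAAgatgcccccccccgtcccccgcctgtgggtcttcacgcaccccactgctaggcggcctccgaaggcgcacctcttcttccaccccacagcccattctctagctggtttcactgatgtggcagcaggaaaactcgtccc
The *Tap1* window held a CCAAT box and a CRE core and no other match of the search, and the annotated exons of the 2 genes share 212 bases on opposite strands, which are 3.87% of those of *Tap1* and 5.79% of those of *Psmb9*. From the same shared window, the log2 difference between MC010 and MC659 was -1.31 ± 0.10 for *Tap1* and -0.09 ± 0.27 for *Psmb9* (SE; adjusted p = 9.7e-09 and 0.78).

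The inducible subunits were then set against the constitutive subunits whose place they take, as a ratio within each library that needs no scaling between libraries. Exon length was that of all annotated exons merged, 3381, 3660 and 1705 bases for *Psmb8*, *Psmb9* and *Psmb10*, beside transcripts of 1628, 1352 and 1311 bases. The level of a ratio depends on the length taken, whereas its comparison between libraries does not. Per 100 reads of *Psmb5*, both per exon length, *Psmb8* had 1.86 and 1.72 in MC010, 0.0450 and 0.0634 in MC011, 0.763 and 0.815 in MC654 and 1.73 and 1.57 in MC659. MC010 and MC659 overlapped here, with MC654 lower and MC011 far below. *Psmb9* per 100 *Psmb6* was 0.342 and 0.401 in MC010, 0.0271 and 0.0609 in MC011, 0.280 and 0.315 in MC654 and 0.536 and 0.545 in MC659. *Psmb10* per 100 *Psmb7* was 17.4 and 16.3 in MC010, 18.2 and 17.1 in MC011, 26.7 and 22.5 in MC654 and 27.1 and 30.4 in MC659. Only for this last pair did the labels not overlap. The label difference of the log2 ratio was -1.88 for *Psmb8* to *Psmb5*, -1.71 for *Psmb9* to *Psmb6* and -0.62 for *Psmb10* to *Psmb7*. In a two-sided exact permutation test of 4 against 4 libraries these gave p = 0.4, 0.171 and 0.0286, and 0.4, 0.257 and 0.0857 adjusted over the 3 pairs. The value 0.0286 is the smallest that 4 against 4 can give, and 2 lines against 2 cannot go below 0.333. The constitutive genes themselves moved little in MC011, with log2 differences from the WT lines of 0.11 for *Psmb5*, 0.09 for *Psmb6* and -0.08 for *Psmb7*, none of them called. In MC010 all 3 were higher than in the WT lines, by 0.14 to 0.44. Each of these had an adjusted p below 0.05 in edgeR, and none was called.

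**Figure D2:**
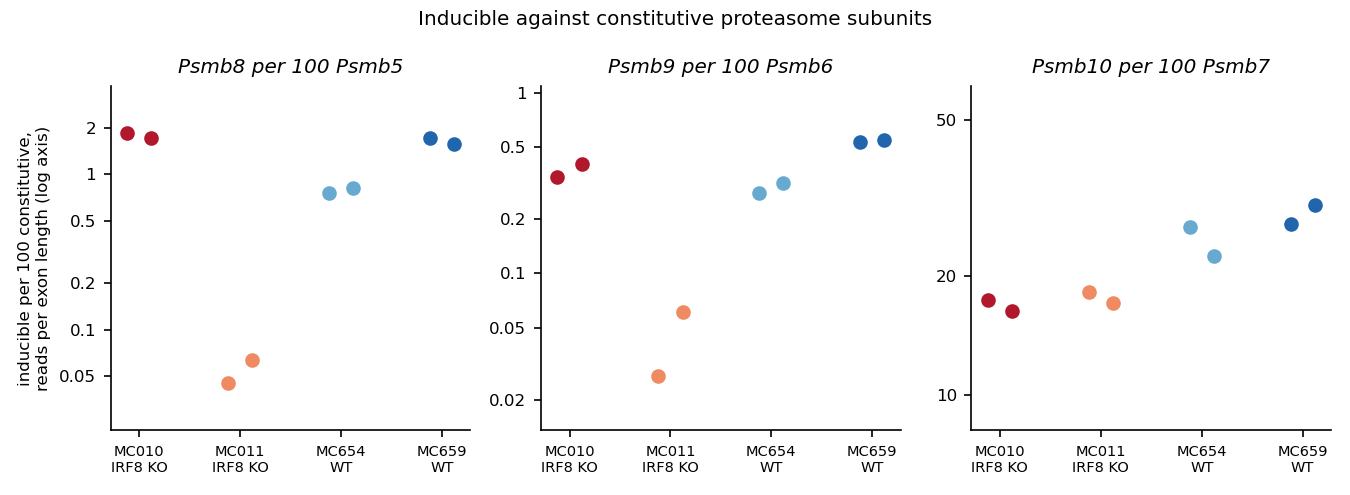
Reads of each inducible proteasome subunit per 100 reads of its constitutive partner, both divided by the length of all annotated exons merged, on log axes. Points are the 2 libraries of each line. The first 2 ratios are lowest in MC011 (0.0450 and 0.0634 for Psmb8, 0.0271 and 0.0609 for Psmb9), whereas the Psmb10 ratio is 16.3 to 18.2 in both lines labeled IRF8 KO and 22.5 to 30.4 in the WT lines.

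*Nlrc5* (ENSMUSG00000074151, chr8:94434356-94527272, plus strand), the transactivator, differed less between lines than the 7 genes on chromosome 17. It had 8.39 and 9.14 CPM in MC010, 6.81 and 6.53 in MC011, 9.54 and 9.41 in MC654 and 12.2 and 11.4 in MC659. MC010 and MC654 were next to each other without overlap, with a log2 difference of -0.12 ± 0.09 (SE; adjusted p = 0.30). MC011 held 62.6% of the WT mean, a log2 difference of -0.66 ± 0.08 (SE; adjusted p = 5.0e-06).

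**Figure D3:**
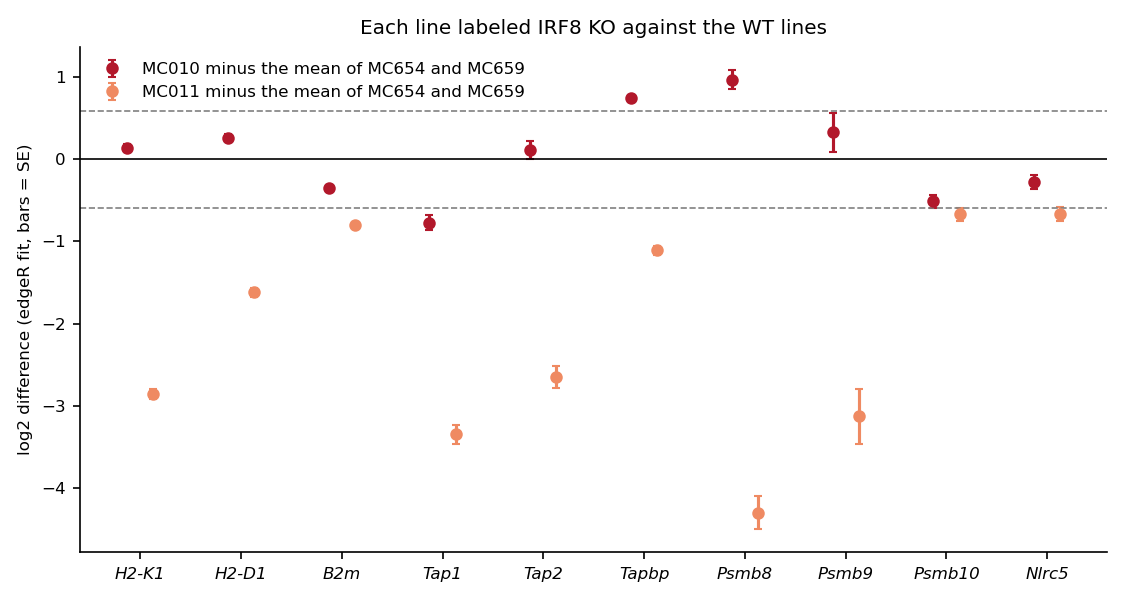
Log2 difference of MC010 and of MC011 from the mean of MC654 and MC659 for the 10 genes, from the edgeR fit with a group per line; bars are standard errors and dashed lines mark 0.59 in either direction. MC011 points lie between -0.66 and -4.30, and MC010 points between -0.77 and 0.97.

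Set directly against each other, the 2 lines with the same label IRF8 KO differed in 7 of the 10 genes, all higher in MC010 (background for that call 15.7%). The median of the 10 log2 differences was 2.23, beside 0.00089 over all genes tested. The heavy chain *H2-K1* differed by 3.00 ± 0.06 and *H2-D1* by 1.88 ± 0.06, the loading genes *Tap1* by 2.58 ± 0.12, *Tap2* by 2.76 ± 0.15 and *Tapbp* by 1.85 ± 0.06, and the proteasome genes *Psmb8* by 5.27 ± 0.21 and *Psmb9* by 3.45 ± 0.35 (log2, SE; adjusted p between 4.5e-15 and 5.1e-07). The remaining genes were not called, at 0.45 ± 0.04 for *B2m*, 0.39 ± 0.10 for *Nlrc5* and 0.16 ± 0.09 for *Psmb10* (adjusted p = 1.7e-07, 0.0024 and 0.14). The 7 called genes are those on chromosome 17, and the 3 others lie on chromosomes 2 and 8. The mesenchymal markers also differed between these lines, although their sums were alike. Of 9 tested, 1 was called higher and 6 lower in MC010 (background 15.7% and 16.0%), with a median of -1.50. *Pdgfra*, a growth factor receptor gene of fibroblasts, had 70.2 and 72.4 CPM in MC010, 445 and 446 in MC011, 17.8 and 19.9 in MC654 and 18.2 and 17.1 in MC659. *Thy1* had a line mean of 70.2 CPM in MC011 and 9.23 to 12.4 in the other lines, and *Dcn*, the decorin gene, 90.1 CPM in MC011 and 10.7 to 23.6 in the others. These 3 markers were highest in MC011, the line in which the 10 genes were lowest, and were named after their values were seen. The rest of the list was mixed. *Pdgfrb* and *Col3a1* were also highest in MC011, whereas *Vim* was highest in MC010 and *Col1a1*, *Fn1* and *Lum* in MC659. *Col1a2* was lowest in MC011, with a line mean of 246 CPM against 780 to 1245 CPM in the others. The part of the markers in the result was not tested.

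The 2 WT lines also differed from each other. MC654 had 4 of the 10 genes called lower than MC659, against a background of 3.71%, and the median of the 10 differences was -0.65, beside -0.0030 over all genes. The called genes were *Tap1* at -1.09 ± 0.10, *Psmb8* at -0.99 ± 0.15, *H2-K1* at -0.97 ± 0.05 and *Tap2* at -0.76 ± 0.13 (log2, SE). *Psmb9* was at -0.83 ± 0.28 with an adjusted p of 0.059. Against MC654 alone, MC011 had 8 genes called lower (background 12.4%), all but *Psmb10* and *Nlrc5*, and against MC659 it had 10 (background 13.7%). MC010 had 4 genes called higher than MC654 (*H2-K1*, *Tapbp*, *Psmb8* and *Psmb9*; background 19.6%) and 2 called lower than MC659 (*Tap1* and *Psmb10*; background 17.7%). These comparisons share their libraries and are not separate evidence. By line means, *H2-K1*, *H2-D1*, *Tap2* and *Psmb9* ran MC011, MC654, MC010, MC659 from low to high, *Tapbp* and *Psmb8* ran MC011, MC654, MC659, MC010, and *B2m*, *Tap1*, *Psmb10* and *Nlrc5* ran MC011, MC010, MC654, MC659. Neighbors in these orders that did not pass an adjusted p of 0.05 were MC010 and MC659 for *H2-D1* (0.92), *Tap2* (0.064) and *Psmb9* (0.78), MC010 and MC654 for *Tap1* (0.059) and *Nlrc5* (0.30), and for *Psmb10* both MC011 and MC010 (0.14) and MC654 and MC659 (0.12).

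The comparison the study itself set out, libraries labeled IRF8 KO against those labeled WT, averaged over these unlike lines. It called 1 of the 10 genes, *Psmb10*, which fell by 0.594 on the log2 scale, just past the fold threshold (adjusted p = 0.0032). Over all genes tested, 22.5% were called in either direction by label. On the adjusted p alone, 3 genes were lower (background 16.7%), namely *Psmb10*, *B2m* at -0.57 ± 0.15 (adjusted p = 0.018) and *Nlrc5* at -0.46 ± 0.16 (0.048). An unadjusted p below 0.05 was reached by 4 genes, against 46.9% of all genes, and *Tap1* at -1.65 ± 0.68 was the gene added (adjusted p = 0.093). For *B2m*, *Tap1*, *Psmb10* and *Nlrc5* the 4 libraries labeled IRF8 KO were all below the 4 labeled WT, as were 20.5% of all genes. The largest SE belonged to *Psmb8*, whose label difference was -0.08 ± 1.10 with means of 3.41 ± 3.74 CPM for the label IRF8 KO and 3.60 ± 1.37 CPM for WT (SD, n = 4 libraries of 2 lines). The label result turned on which line was in it. Without MC010 all 10 genes were called lower, where 12.8% of all genes were. Without MC011 none was called lower and 2 were called higher, *Psmb8* at 0.88 and *Tapbp* at 0.72, where 16.6% and 19.7% of all genes were. With the 2 libraries of each line added, so that 2 lines stood against 2, no gene of the table was called and 3361 had an unadjusted p below 0.05 in edgeR, and of the 10 genes 1 had such a p. With the line as a random block in limma-voom, 0 of the 10 genes were called, where 1047 of all 15153 genes were called higher and 839 lower. Of the 10, 1 passed the adjusted p and 4 an unadjusted p of 0.05, which 4421 of all genes passed. DESeq2 called 2, *Psmb10* and *Tap1*, where 2319 of all genes were called higher and 1520 lower. Leaving out a single library gave 0 called genes without either MC011 library or without MC659 replicate 2, and 2 without any of the MC010 or MC654 libraries. Over all genes, these fits by label called 1812 to 2222 higher and 1080 to 1434 lower.

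The 7 genes on chromosome 17 were spread over 1352 kb of the MHC from *Tapbp* to *H2-D1*, and the genes between them gave a view of whether the whole stretch moved. Of 61 tested genes in that stretch without an H2 name, 15 were called higher and 6 lower in MC010 than in MC011 (background 15.7% and 16.0%), with a median of 0.33 and a range of -2.97 to 1.60. None of the 61 reached the 1.85 of *Tapbp*, the smallest of the 7. Against the WT lines, MC011 had 5 of the 61 called lower and 9 called higher (background 13.4% and 17.3%) with a median of 0.06, while the 7 genes were all called lower with a median of -2.86. In that comparison 5 of the 61 lay below the -1.11 of *Tapbp*, of which 4 were called. The complement gene *C2* was at -1.91, *Mir8094* at -1.996, *Sapcd1* at -1.41 and *Atp6v1g2*, for a proton pump subunit, at -1.23 (adjusted p between 4.7e-07 and 0.037), all named after their values were seen. Both MC011 libraries were below the other 6 for 8 of the 61 genes, against 17.8% of all genes. Of the 4 other H2 genes tested there, the class II peptide loading gene *H2-DMb1* was higher in MC010 by 2.87, and *H2-K2* was the gene called lower in MC011 than in the WT lines, at -2.25, both named after their values were seen.

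**Figure D4:**
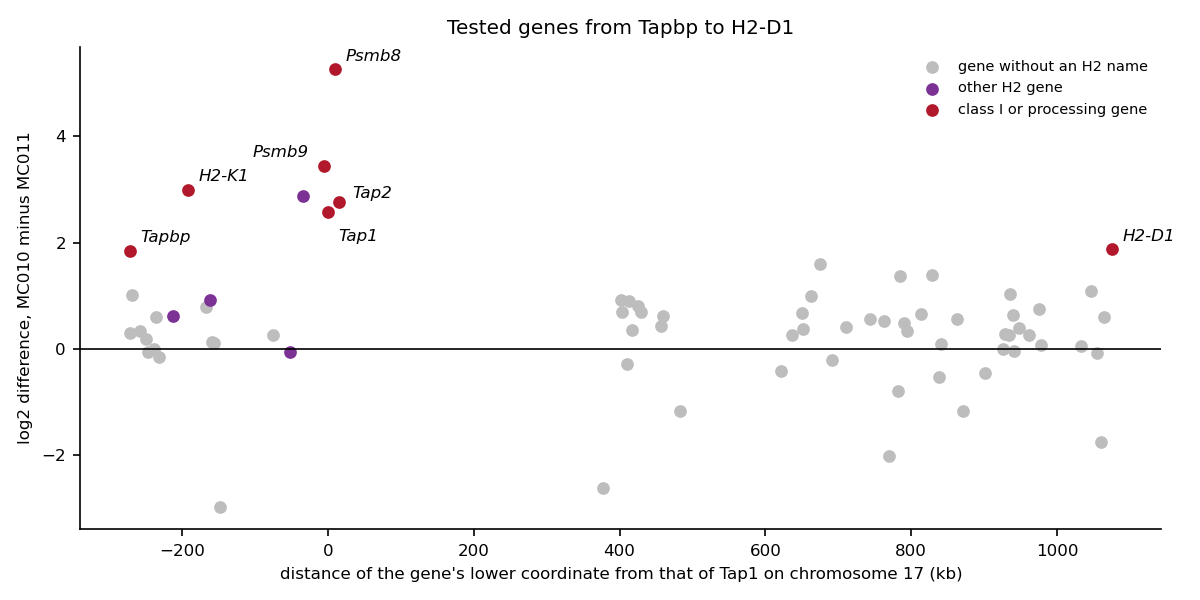
Log2 difference of MC010 from MC011 for every tested gene from Tapbp to H2-D1 on chromosome 17, by the distance in kb of its lower coordinate from that of Tap1. The 7 class I and processing genes lie between 1.85 and 5.27, and the 61 genes without an H2 name between -2.97 and 1.60.

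Genes of the same pathway other than the 10 were taken as 8 lists, of which 66 genes were tested. By label, 3 were called higher and 9 lower, where 13.7% and 8.72% of all genes were, and the median difference was -0.0017, beside 0.02 over all genes. These 12 calls, which include those by label named below, numbered 0 with the libraries of each line added, 7 with the line as a random block, 20 without MC010, 24 without MC011 and 6 without MC659. Over all genes tested, the random block called 1047 higher and 839 lower of 15153. The calls were 2679 and 2056 of 16095 without MC010, 3159 and 2668 of 16072 without MC011, and 1185 and 699 of 16295 without MC659. The pathway count thus rose and fell with the count over all genes. In MC011 against the WT lines, 16 were called lower and 7 higher (background 13.4% and 17.3%), and between MC010 and MC011 16 were higher and 6 lower in MC010 (background 15.7% and 16.0%). None of the 11 shared core subunits of the proteasome and none of the 3 constitutive catalytic subunits was called in MC011 against the WT lines, with medians of -0.01 and 0.09. Both MC011 libraries were nevertheless below the other 6 for 5 of the 11, 1 of the 3 and 4 of 9 activator and assembly genes, against 17.8% of all genes. Between the lines labeled IRF8 KO, 3 of the 11 core subunits were called higher in MC010 and none lower, with a median of 0.51. Of the 9 activator and assembly genes, 2 were called lower in MC011, *Psme1* at -0.80 ± 0.05 and *Psme2* at -0.82 ± 0.06 (log2, SE), which encode the PA28 activator, and 1 was called higher. *Psme1* had 76.8 and 75 CPM in MC010, 34.4 and 34.2 in MC011, 54.6 and 55.9 in MC654 and 62.6 and 67.1 in MC659, so that it too was lowest in MC011. *Psme1* and *Psme2* are named after their values were seen.

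**Figure D5:**
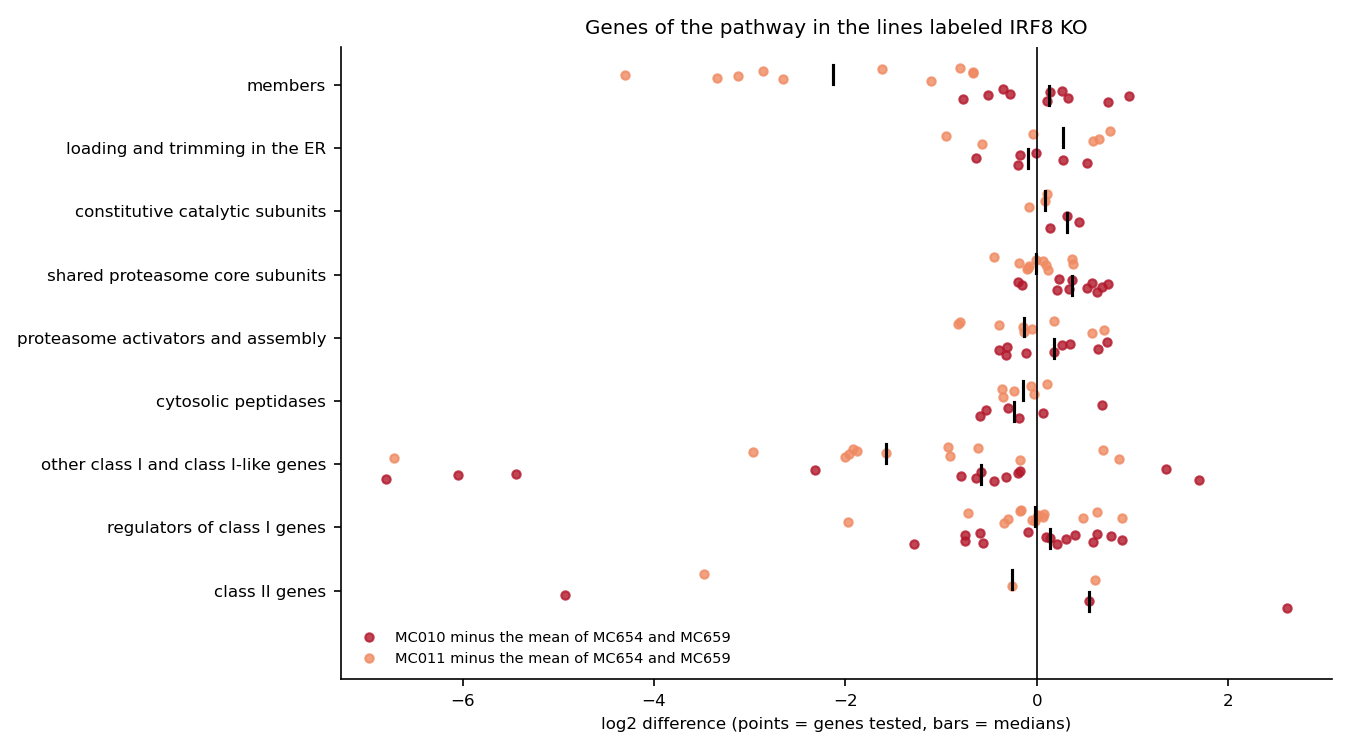
Log2 difference of MC010 and of MC011 from the mean of the WT lines for the 10 genes (members) and the genes tested in 8 lists of the pathway; points are genes and black bars are medians. The MC011 median is -2.13 for the 10 genes, -1.58 for other class I genes and between -0.26 and 0.28 for the other 7 lists.

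Loading and trimming in the ER gave 1 call of 6 by label, where 22.5% of all genes were called in either direction. *Erap1*, the aminopeptidase that trims class I peptides, had 27.8 and 28.8 CPM in MC010, 21.8 and 23.7 in MC011, 39.1 and 44.0 in MC654 and 47.4 and 45.3 in MC659. Both lines labeled IRF8 KO were below both WT lines, and *Erap1* fell by 0.78 on the log2 scale by label (adjusted p = 0.00099). *Tapbpl*, which encodes a tapasin-related peptide editor, was at -0.38 ± 0.16 by label and was not called (adjusted p = 0.096). None of 6 cytosolic peptidase genes was called by label (background 22.5%) or in MC011 against the WT lines (background 13.4% lower and 17.3% higher).

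Other class I and class I-like genes were the list with the most calls. By label 5 of 13 tested were called lower and 1 higher (background 8.72% and 13.7%), and in MC011 10 were called lower and 1 higher against the WT lines (background 13.4% and 17.3%). *H2-T23*, which encodes the nonclassical molecule Qa-1, had 16.9 and 14.7 CPM in MC010, 6.21 and 6.08 in MC011, 18.8 and 17.3 in MC654 and 32.8 and 34.5 in MC659. It was lowest in MC011 and followed the order of *Tap1*, with a label difference of -1.24 ± 0.41 (log2, SE; adjusted p = 0.046). *H2-T22* was at -0.61 ± 0.20 and *H2-T10* at -1.33 ± 0.40 by label (adjusted p = 0.044 and 0.032), with the same order of lines. *H2-T24* had another pattern, with 1 count in each of the 4 libraries labeled IRF8 KO, 73 and 77 counts in MC654 and 155 and 208 in MC659 (adjusted p = 5.7e-05 by label). *H2-Q6* had 1 and 2 counts in MC010, 10 and 7 in MC011, 47 and 29 in MC654 and 115 and 114 in MC659 (adjusted p = 0.0045). *H2-T24* and *H2-Q6* thus had few reads in both lines labeled IRF8 KO, although *H2-K1* and *H2-D1* in MC010 were close to the WT lines. Reads in sequence shared between genes could have been split or dropped by the counting. Of the 75-base windows of their transcripts, 26.1% for *H2-T22*, 23.3% for *H2-T10*, 17.9% for *H2-Q6*, 13.1% for *H2-T23* and 0.474% for *H2-T24* also occurred in a transcript of another gene. *Hfe*, the hemochromatosis gene, was the gene called higher by label, at 1.28 ± 0.37 (adjusted p = 0.027), with 2.56 and 2.27 CPM in MC010, 1.11 and 1.61 in MC011, 0.671 and 0.435 in MC654 and 0.963 and 1.04 in MC659. The labels did not overlap for *Hfe*, but MC011 and MC659 nearly met.

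Genes for regulators of class I transcription were called by label in both directions. Of 15 tested, 2 were called higher, where 13.7% of all genes were, and the background for lower calls was 8.72%. *Irf1*, an interferon-induced activator of class I genes, had 52.4 and 49.9 CPM in MC010, 51.4 and 53.4 in MC011, 79.6 and 75.1 in MC654 and 95.8 and 95.9 in MC659. It fell by 0.74 ± 0.09 by label (adjusted p = 0.00057), with the 2 lines labeled IRF8 KO overlapping. *Rela*, a subunit of NF-kappaB, rose by 0.89 ± 0.05 and *Ezh2*, the methyltransferase of the polycomb complex PRC2, by 0.63 ± 0.04 (adjusted p = 1.7e-05 and 3.7e-05), and both overlapped between MC010 and MC011. Of 3 class II genes tested, *Cd74*, the invariant chain, was called lower by label (adjusted p = 0.0018), where 8.72% of all genes were. *Cd74* was near its detection limit, with 0 and 1 counts in MC010, 1 and 2 in MC011, 13 and 13 in MC654 and 20 and 29 in MC659.

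The likeness of patterns was described as Pearson's r of log2 CPM over the 8 libraries of 4 lines, which share their tumors and libraries. Against the mean of the other 9 genes, each centered, r was 0.998 for *H2-K1*, 0.997 for *Tap2*, 0.989 for *H2-D1*, 0.980 for *Psmb9*, 0.973 for *Psmb8* and 0.956 for *Tap1*, and it was lower for *Tapbp* (0.890), *B2m* (0.882), *Nlrc5* (0.879) and *Psmb10* (0.680). Of 10612 genes outside the lists with a mean log2 CPM of at least 1, 496 had an r above 0.9 with the mean of the 10 genes. The 5 most alike were *Parp10*, *Lrrc49*, *Lpin1*, *Fads1* and *Asap3*, with r of 0.996 to 0.994, on chromosomes 15, 9, 12, 19 and 4. *Parp10*, a mono-ADP-ribosyltransferase gene, had line means of 18.4 CPM in MC010, 4.07 CPM in MC011, 15.2 CPM in MC654 and 21.6 CPM in MC659. With 4 lines, many genes that are low in MC011 have such an r.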

How the data were processed

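RNA from 4 tumor cell lines, 2 libraries each, was sequenced from a stranded mRNA library. The submitters' processing notes name STAR 2.7.3a, HTSeq 0.11.2 and DESeq2 and the build mm10 (GRCm38.p6). The strand setting of the counting was not given in the sources used here. The raw counts per gene deposited by the authors, whole numbers with at least 20 in all per gene, were the only values analyzed. The same table holds deposited signal columns (counts divided by size factors), a log2 fold change, a test score and p-values of the authors' own comparison, which were not used.

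Counts were tested with edgeR 4.0.16 (R 4.3.3; filterByExpr by label, TMM, robust quasi-likelihood) over all 15153 genes that passed the filter, with Benjamini-Hochberg adjustment over them. A gene was called at an adjusted p under 0.05 and a log2 difference beyond 0.59. One fit compared the labels (4 libraries against 4) and another had a group per line, and all 8 libraries entered both. Tables were made in Python 3.11.15 with SciPy 1.17.1. Alternatives were DESeq2 1.42.0, limma-voom (limma 3.58.1) with the line as a random block (correlation 0.83), no filter, upper-quartile scaling, no fold threshold, the library number as a replicate block, libraries of a line added, and each line or library left out. The steps were tested on simulated counts. The 2 libraries of a line were not copies of each other, since their counts differed by 7.69 to 13.3 times the sampling noise (chi-square per degree of freedom). Floors of 3 counts cover counting error only.

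Positions and exon lengths, with all annotated exons of a gene merged, came from GENCODE vM21 and promoter windows from RefSeq (GRCm38.p6). The gene lists, markers and the 10 genes were chosen with earlier results of these data known. Genes were named by rule: the 10 genes, *Irf8*, list genes called by label, constitutive partners and *Tapbpl*, and the 5 genes outside the lists most alike in pattern. The count of genes with MC011 lowest, the other pairs of lines and the pathway calls in MC011 were added after the values were seen. A gene of the regulator list is not reported here.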

Additional observations from a re-analysis of the deposited data

Results flagged for a closer look

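The 2 lines labeled IRF8 KO differed from each other, when each was set against the same WT lines, in 7 of the 10 genes by an edgeR contrast of the difference itself. Over all genes tested, 15.7% were called higher in MC010 than in MC011 and 16.0% lower. The difference of MC010 from MC011 on the log2 scale was 3.00 for *H2-K1*, 1.88 for *H2-D1*, 2.58 for *Tap1*, 2.76 for *Tap2*, 1.85 for *Tapbp*, 5.27 for *Psmb8* and 3.45 for *Psmb9*. In each case both MC010 libraries were above both MC011 libraries. *Irf8* itself differed between these lines in the same direction, with 442 and 347 counts in MC010 and 32 and 10 in MC011. In the WT lines *Irf8* had 1 and 2 counts in MC654 and 1 and 0 in MC659, while all 10 genes were higher there than in MC011. The part of *Irf8* in the differences was not tested. No library stood apart from the 3 others of its label for any gene or ratio, over 26 groups of 4 libraries examined, of which chance flags about 1 in 20. Each group joined 2 lines with 2 libraries each. Where those lines differed, a single library could hardly stand apart, so the absence of a flag says little about the libraries.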

How the results depend on the processing

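The 10 calls of MC011 against the WT lines and the 7 calls between MC010 and MC011 were the same in number by DESeq2, with no filter, with upper-quartile scaling, with the replicate block and without each library, and with no fold threshold they were 10 and 9. Line sums, the random block and leaving out a line were run for the comparison by label only. The other comparisons moved. With no fold threshold, the calls rose to 3 by label, 8 between MC654 and MC659, 8 in MC010 against the WT lines and 25 among pathway genes by label. Of all 15153 genes tested, 3151 were then higher and 2524 lower by label. Between MC654 and MC659, 831 were higher and 1367 lower, and in MC010 against the WT lines 5433 and 5264. In MC011 against the WT lines they were 5199 and 4702, and in MC010 against MC011 4730 and 4820. The count of members called by label, 1 in the report, was 2 by DESeq2, 0 with line sums, 0 with the line as a random block, 10 without MC010, 2 without MC011, 2 without MC654 and 0 without MC659, and 0 to 2 with each library left out. The 12 pathway genes called by label became 0 with line sums, 7 with the random block, 20 without MC010, 24 without MC011 and 6 without MC659. Over all 15153 genes, DESeq2 called 2319 higher and 1520 lower by label, line sums called 0, and the random block 1047 and 839. With a line left out, 16072 to 16429 genes were tested. The calls were 2679 and 2056 without MC010, 3159 and 2668 without MC011, 1222 and 857 without MC654, and 1185 and 699 without MC659. With a library left out they were 1812 to 2222 higher and 1080 to 1434 lower. Leaving lines out turned the sign of 2 genes with a call in the new direction: *Tapbp* was at -1.14 by label without MC010, and *Psmb8* at 0.88 without MC011. Signs of values that were not called turned as well: without MC011 *H2-K1* was at 0.05, *H2-D1* at 0.23, *Tap2* at 0.05 and *Psmb9* at 0.26, without MC659 *Psmb8* was at 0.49, and *Tapbp* was at -0.11 without MC654 and -0.17 with the random block. With each library left out, *Tapbp* ran from -0.25 to 0.33 and *Psmb8* from -0.70 to 0.32. The cause was not tested. The *Psmb10* to *Psmb7* ratio had a label difference of -0.62 with line sums (exact permutation p = 0.333), and -0.70 to -0.56 with each library left out, where the exact p was 0.0571 each time, the smallest such groups allow. With each library left out, calls were 4 to 5 between MC654 and MC659, and 9 to 12 among pathway genes by label. Without either MC011 library *Psmb9* was called between the WT lines (adjusted p = 0.035 each).

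With a replicate block made from the library number, 1 of the 10 genes was called by label, and the counts between lines were 7, 4, 3 and 10, as without it; 9 pathway genes were called by label. The number is not a pairing: deviations of libraries with the same number correlated at -0.03 to 0.06 between lines. The lone library left in a line when its partner is left out was assumed to vary like the other groups. Depth limited *Psmb8* and *Psmb9* in MC011, with 8 to 16 counts a library.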
